A study of Mus musculus with 4 samples.

Results

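The genes described here are carriers of inorganic ions, bicarbonate and metals in mouse embryonic stem (ES) cells kept with or without leukemia inhibitory factor (LIF). The members are the genes of the solute carrier families Slc4, Slc8, Slc9, Slc12, Slc20, Slc24, Slc30, Slc31, Slc34, Slc39 and Slc41, taken by symbol from array probe sets that the platform annotation gives to a single gene. The rule found 68 of 18193 such genes, with 132 probe sets, and 57 of the 68 lay above the filter on dim signals. Because only the start of a symbol was matched, 3 of the 68 are not carriers: Slc9a3r1 and Slc9a3r2, scaffold proteins that bind the exchanger Slc9a3, and Slc4a1ap, an adaptor protein named after Slc4a1. The carriers proper are thus 65 genes, 54 of them tested.

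The study compared transcripts of CGR8 cells, a single mouse ES cell line grown on gelatin in medium with serum replacement, between 2 arrays of cells given medium without LIF and 2 arrays of cells kept with LIF at 1000 U/ml, after 2 days. Each array held biotinylated cRNA made from total RNA, and the arrays of each group are numbered 1 and 2 in the labels. Separate cultures are not stated for arrays of the same group, and a p-value then covers array-to-array spread that could be purely technical. With 2 arrays in each group their number limits the precision of every value.

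Values are MAS5 signals, a brightness for each probe set computed for each array by itself. All 10 listed ES cell markers lay above the filter, at summed signals of 66816 and 92716 without LIF and 118977 and 141423 with LIF. Median signals were 59.6 to 95.5, with the highest on array 1 without LIF. The 18S ribosomal RNA probe set read 451 and 462 on the arrays numbered 1 and 2990.4 to 5150.4 on those numbered 2, so changes within each number are given beside the main values. The 12 primitive endoderm markers summed to 4030 and 21568 without LIF and 2989 and 8050 with LIF on arrays 1 and 2. The signal comes from whole cultures, in which fewer cells of a type and less RNA per cell cannot be told apart.

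Zinc is kept low in the cytosol by opposed carrier families: Slc30 proteins move zinc out of it, across the plasma membrane or into organelles, and Slc39 proteins move zinc, and in some cases manganese or iron, into it. Slc31 proteins carry copper and Slc41 proteins magnesium. Slc4 proteins carry bicarbonate and Slc9 proteins exchange sodium for protons, so that both set the pH of the cell. Slc12 proteins carry chloride together with sodium or potassium and set cell volume and chloride, Slc20 and Slc34 proteins take up phosphate with sodium, and Slc8 and Slc24 proteins exchange calcium for sodium. When zinc rises, the transcription factor Mtf1 binds metal response elements in the promoters of metallothionein genes and of Slc30a1. LIF acts in ES cells through the transcription factor Stat3.

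Promoter sequences of 4 metal carriers are shown because Slc30a2 and Slc39a8 lay furthest from 0 among the metal carriers, and because Slc30a1 and Slc30a10, exporters of zinc and manganese, also hold matches to the metal response element. They are the 250 bases before a RefSeq gene start on GRCm38.p6, 5′ to 3′, at chr4:134343216-134343465, chr3:135825407-135825656, chr1:191906531-191906780 and chr1:185454598-185454847, all on the plus strand. Capitals mark TGCACNC or TGCGCNC, the core of the element, on either strand.
Slc30a2: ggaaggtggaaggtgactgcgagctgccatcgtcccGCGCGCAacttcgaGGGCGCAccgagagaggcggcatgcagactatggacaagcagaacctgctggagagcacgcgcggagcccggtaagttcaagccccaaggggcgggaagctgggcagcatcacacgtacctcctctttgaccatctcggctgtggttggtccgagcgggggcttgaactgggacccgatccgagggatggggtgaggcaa
Slc39a8: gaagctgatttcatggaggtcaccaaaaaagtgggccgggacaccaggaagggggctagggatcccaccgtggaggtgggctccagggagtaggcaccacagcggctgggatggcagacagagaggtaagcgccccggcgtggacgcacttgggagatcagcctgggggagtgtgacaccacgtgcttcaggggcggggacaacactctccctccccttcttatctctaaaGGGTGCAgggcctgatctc
Slc30a1: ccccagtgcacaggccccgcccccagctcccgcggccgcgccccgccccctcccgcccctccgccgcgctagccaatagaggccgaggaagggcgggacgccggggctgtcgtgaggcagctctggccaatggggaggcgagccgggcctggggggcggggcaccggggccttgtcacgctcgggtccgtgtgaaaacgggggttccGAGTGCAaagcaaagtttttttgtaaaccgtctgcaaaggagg
Slc30a10: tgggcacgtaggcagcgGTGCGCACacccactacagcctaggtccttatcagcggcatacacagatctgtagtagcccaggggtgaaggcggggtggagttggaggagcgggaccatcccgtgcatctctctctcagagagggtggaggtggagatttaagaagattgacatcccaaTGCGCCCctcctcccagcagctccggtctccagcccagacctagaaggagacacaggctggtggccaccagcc
In the promoters shown, the core matched at 2 places in Slc30a2, 1 in Slc39a8, 1 in Slc30a1 and 3 in Slc30a10. In Slc30a10, 2 of the matches overlap on opposite strands. Only starts with a match are shown: another start of Slc39a8, at chr3:135825029-135825278, had 0 matches. Promoters of 57 members were in the table, with 73 starts, and 28 of the 73 (38.4%) held the core, against 21.4% of 32851 promoters of the same length over all genes. The STAT motif TTCNNNGAA, searched on both strands, matched 2 of the 73 (2.74%), those of Slc39a10 and Slc12a8, against 7.02% of all promoters. A match is a run of letters, not a measured binding site.

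Across the carriers no transcript passed the main test between cells without and with LIF, which did not model the array number. Of the 57 tested members 0 had an adjusted p of 0.05 or less in limma, against 21 of 14445 genes (0.145%; 0.0485% higher and 0.0969% lower without LIF). With the array number as a block 4 members passed, beside 6.75% of all genes, and the labels do not say what the number stands for. At the unadjusted level of the main test 7 members (12.3%) had an unadjusted p of 0.05 or less, against 10.9% of all genes. By size, 6 members (10.5%) differed at least 2-fold with both arrays of a group beyond both of the other, against 9.48% of genes. Of these, 5 were higher without LIF (Slc39a8, Slc34a2, Slc34a3, Slc9a7 and Slc8a1), against 7.36% of genes, and 1 was lower (Slc30a2), against 2.12%. Of the 5, Slc9a7 and Slc8a1 passed the filter only through the cells without LIF. Where both group means lay above the filter, 4 of 52 members (7.69%) were 2-fold and apart, against 7.29% of genes. These shares lie near those of all genes. Omitting array 2 of the cells without LIF turned the count of 6 into 10. With 1 array left in that group a gene is more easily apart, and the share of all genes is not given for this setting.

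Smaller shifts leaned one way. The groups did not overlap for 28 of the 57 members (49.1%), against 42.5% of all genes. They were 26 members higher without LIF (45.6%, against 27.3% of all genes) and 2 lower (3.51%, against 15.2%), Slc30a2 and Slc12a7. The 26 include Slc9a7 and Slc8a1, which passed the filter only through the cells without LIF. Slc4a9 and Slc39a2, which enter the medians below, passed in the same way, and Slc12a3 only through the cells with LIF. Within both numbers 32 members were higher without LIF (56.1%, against 40.1% of all genes) and 5 lower (8.77%, against 24.9%). The median log2 change, without LIF minus with LIF, was 0.32 over the 57 members and 0.09 over all tested genes, and it was 0.31 and 0.36 within the arrays numbered 1 and 2. Scaling moved the members and all genes together. Quantile normalization gave medians of 0.19 for the members and 0.02 for all genes. With it 18 members were apart and higher (31.6%, against 21.2% of all genes) and 3 apart and lower (5.26%, against 18.3%). A common median for each array shifted all genes to -0.20 and the members to 0.02. With it 13 members were apart and higher (22.8%, against 11.9% of all genes) and 5 apart and lower (8.77%, against 23.1%).

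**Figure D1:**
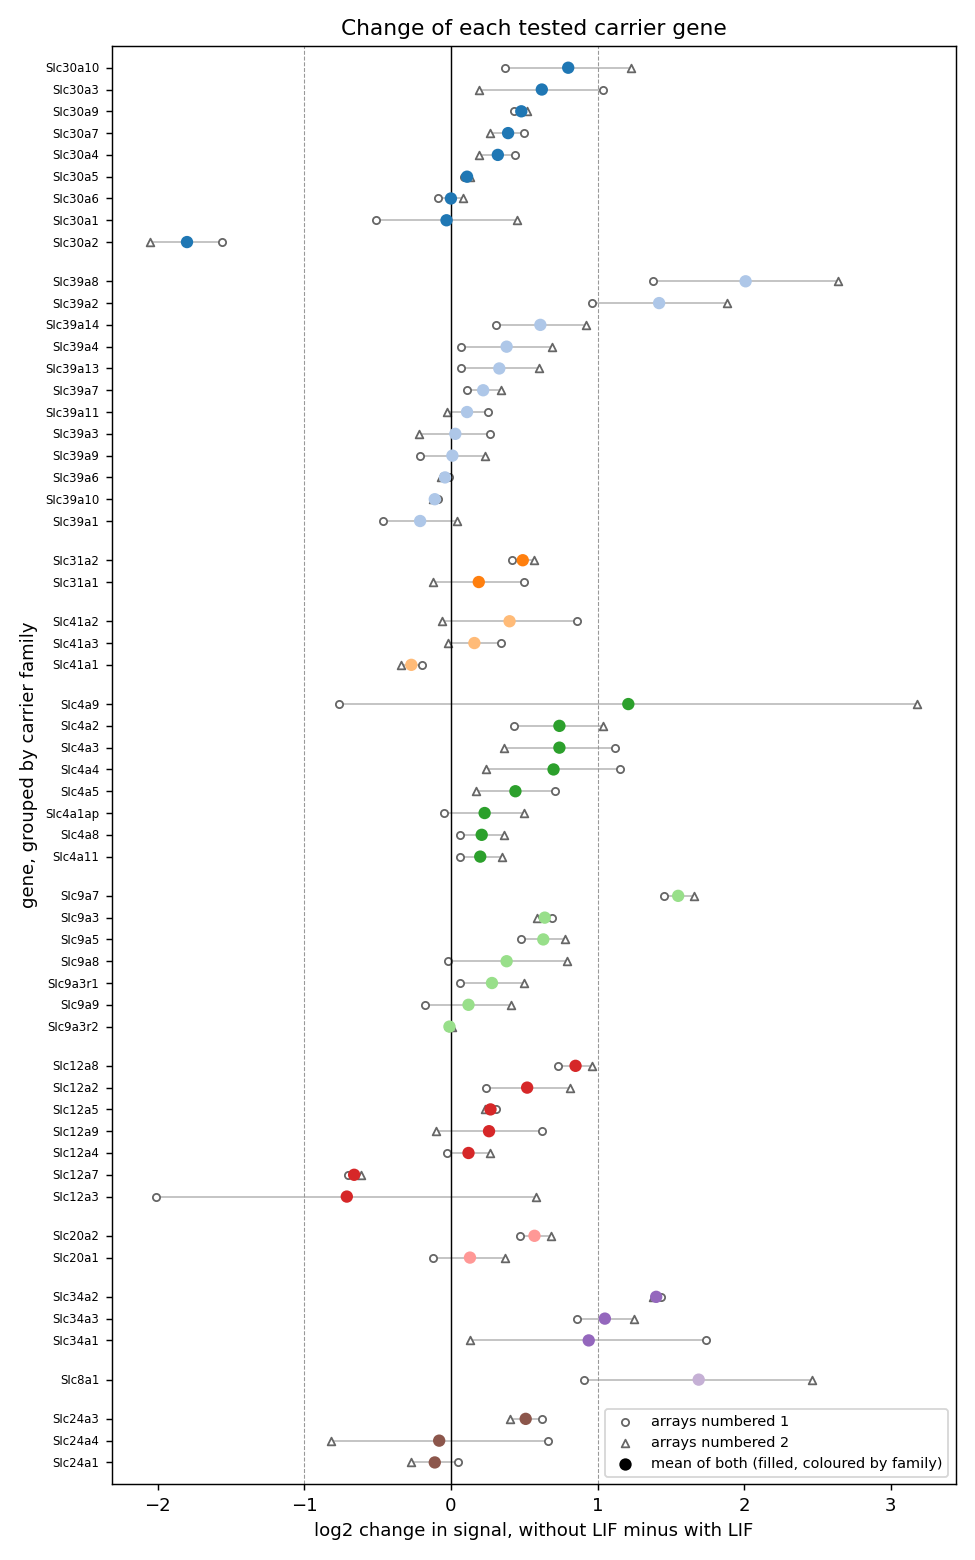
Log2 change in signal (without LIF minus with LIF) of the 57 tested members, grouped by family. Filled points are the mean, open circles and triangles the changes within the arrays numbered 1 and 2, and dashed lines mark 2-fold; Slc30a2 stands alone at -1.80 and Slc39a8 is furthest to the right at 2.01.

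**Figure D2:**
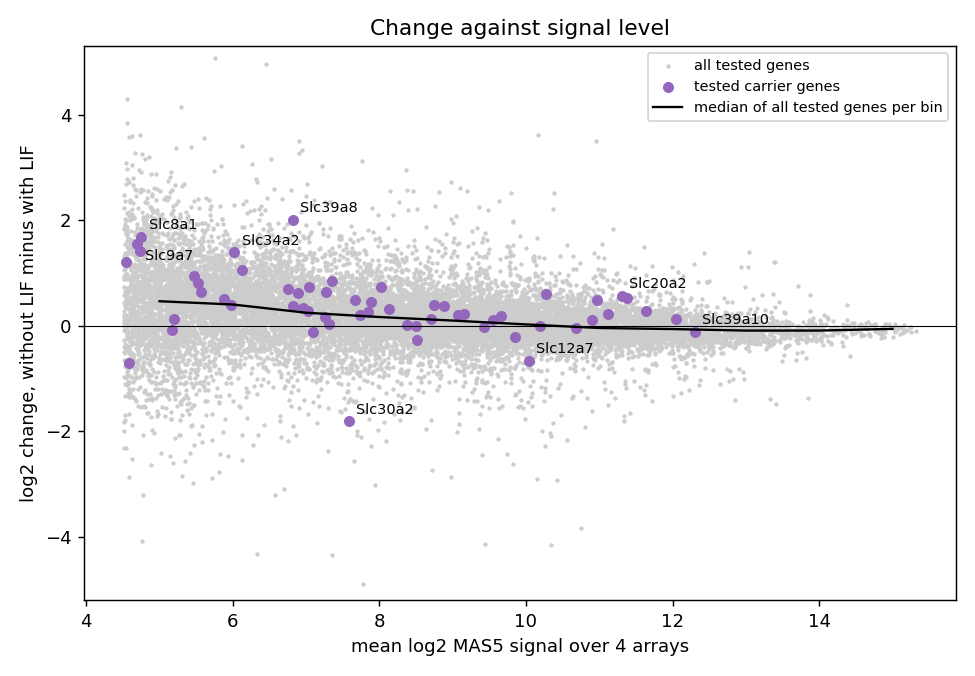
Log2 change (without LIF minus with LIF) against mean log2 signal over the 4 arrays for all tested genes (grey) and the tested members (purple), with the median of all genes in bins of 1 log2 unit (black). Dim genes spread more and their median lies above 0, for the members as for all genes.

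The size of a change went with the level of the signal. Among the 28 members brighter than a mean signal of 214 the median change was 0.20 and the largest 0.74 in size, with 0 of them 2-fold apart, against 4.17% of all genes at that level. Among the 29 dimmer members the median was 0.62, and it was here that the 6 with a 2-fold difference lay (20.7%, against 17.3% of all genes below that level). All tested genes showed the same direction, with medians of 0.01 above that level and 0.35 below it.

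Among the zinc exporters Slc30a2 was the member with the smallest p of all carriers. Its protein, ZnT2, loads zinc into vesicles and is known for supplying zinc to milk. Slc30a2 had signals of 121.2 and 87.2 without LIF, against 356.7 and 361.7 with LIF. Both arrays without LIF were lower than both with LIF, and the arrays with LIF were within a few units of each other. The log2 change was -1.80 (3.49-fold lower; SE 0.32; limma, adjusted p = 0.092), at -1.56 for the pair numbered 1 and -2.05 for the pair numbered 2. Its adjusted p ranged from 0.0037 to 0.46 over 13 alternatives and its change from -2.10 to -1.57. It passed after omission of array 1 or array 2 of the cells without LIF (adjusted p = 0.0081 and 0.027) and with a common median (0.0071). Each omission leaves 1 array without LIF, so the spread then comes from the arrays with LIF alone, which were nearly equal. After omission of array 1 or array 2 of the cells with LIF its adjusted p was 0.29 and 0.46. Slc30a2 has a single probe set here. The summed ES cell markers were lower without LIF on the same arrays, and their part in this difference was not tested.

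The other zinc exporters were close between the groups or slightly higher without LIF. Of 9 tested Slc30 genes 5 were apart and higher, 1 was apart and lower, 3 overlapped and 0 passed the test, with a median change of 0.32. Over all genes 27.3% were apart and higher, 15.2% apart and lower, and 0.145% passed the test. Slc30a9, a carrier of the mitochondrial membrane, read 2002.5 and 2790.3 without LIF, against 1485.4 and 1941.4 with LIF (log2 change 0.48, SE 0.24, adjusted p = 0.53). Each array without LIF exceeded both arrays with LIF, though array 1 without LIF only narrowly.

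Slc30a1, the exporter of the plasma membrane, read 434.7 and 1066.3 without LIF, against 618.5 and 778.6 with LIF. The arrays without LIF lay on either side of those with LIF, so that the log2 change of -0.03 (SE 0.41) was the mean of -0.51 and 0.45 within the numbers. Slc30a5 and Slc30a6, which act together in the secretory pathway, had log2 changes of 0.11 and 0.00 (SE 0.20 and 0.19). Slc30a7, of the same compartment, had 0.39, and its other probe set 0.53. Slc30a3, which fills synaptic vesicles with zinc, Slc30a4 and Slc30a10 had 0.62, 0.32 and 0.80 (adjusted p = 0.62, 0.72 and 0.68). Slc30a10 read 47.8 and 77.3 without LIF, against 37.1 and 33.0 with LIF.

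Of the Slc39 importers, 5 of 12 tested genes were apart and higher without LIF, 0 apart and lower, and 7 overlapped, with a median change of 0.17, beside 27.3% and 15.2% of all genes apart and higher or lower. Slc39a8, or ZIP8, takes up zinc, manganese and iron, and cadmium where it is present. It read 118.2 and 437.3 without LIF, against 45.4 and 70.2 with LIF. Both arrays without LIF were above both with LIF, but array 2 without LIF stood far above the other. The log2 change was 2.01 (4.03-fold; SE 0.64; adjusted p = 0.32), with 1.38 and 2.64 within the numbers. Omitting array 2 of the cells without LIF gave 1.07. Omitting their array 1 gave 2.95, with only the far higher array 2 left in that group. In the alternatives that kept all 4 arrays its adjusted p (limma) ran from 0.014, with the array number as a block, to 0.63, with the mean of probe sets.

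A dimmer probe set of Slc39a8 read 38.2 and 114.3 without LIF, against 32.6 and 48.4 with LIF (log2 change 0.73), with the same array highest but the groups overlapping. Array 2 without LIF was also the array with the highest primitive endoderm sum, 21568, against 2989 to 8050 on the others. All 12 markers of that list lay above the filter, and their part in the Slc39a8 values was not tested.

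Slc39a14, or ZIP14, takes up manganese, iron and zinc and is induced in mouse liver by interleukin 6, which shares the receptor subunit Il6st with LIF. Slc39a14 read 1566.0 and 1484.6 without LIF, against 1266.4 and 783.2 with LIF. The groups did not overlap, and the higher values were in the cells without LIF (log2 change 0.61, SE 0.26, adjusted p = 0.46; 0.31 and 0.92 within the numbers). Its other probe sets above the filter had log2 changes of 0.37 and -0.14, so the direction differed among them. A further probe set, below the filter, had -0.94, and the mean of all 4, with that dim one, was -0.02.

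On their brightest probe sets, the other Slc39 genes with bright signals lay close to 0. Slc39a6 and Slc39a10 are related importers known to act as a pair. Slc39a10 read 4697.5 and 5079.1 without LIF, against 5014.7 and 5536.7 with LIF (log2 change -0.11, SE 0.17). Slc39a6 read 1590.1 and 1635.5 without LIF, against 1604.7 and 1720.4 with LIF (log2 change -0.04, SE 0.18). For both, the groups overlapped on these probe sets. A dimmer probe set of Slc39a10 read 1423.6 and 1216.7 without LIF, against 1782.8 and 1689.3 with LIF (log2 change -0.4). On it both arrays without LIF were lower. Slc39a1, a plasma membrane importer, had a log2 change of -0.21 (SE 0.22), and Slc39a7, which releases zinc from the endoplasmic reticulum, 0.22 (SE 0.19). Slc39a4, the importer of the gut, Slc39a13, Slc39a11, Slc39a3 and Slc39a9 had log2 changes of 0.38, 0.33, 0.11, 0.03 and 0.01. Slc39a2 read 94.3 and 20.3 without LIF, against 48.4 and 5.5 with LIF, so that the groups overlapped and array 2 lay below the filter signal of 22.9 in both groups.

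Metal-handling genes outside these families gave a context for the zinc carriers. Of 12 listed metallothioneins, chaperones, pumps and iron carriers 0 passed the test, against 0.145% of all genes, and their median change was 0.01. Apart and higher without LIF were 5, and apart and lower 2, against 27.3% and 15.2% of all genes. At least 2-fold and apart were 4 higher and 1 lower, against 7.36% and 2.12% of all genes. Mt1, a metallothionein that binds zinc and copper, read 3121 and 6127 without LIF, against 1119 and 1361 with LIF (log2 change 1.82, SE 0.32, adjusted p = 0.089; 1.48 and 2.17 within the numbers). Mt2, its partner, read 5468 and 14464 without LIF, against 3390 and 3413 with LIF (log2 change 1.39, adjusted p = 0.27). Both genes were higher on both arrays without LIF and highest on array 2, as was Slc39a8. Mt3 read 198.4 and 232.9 without LIF, against 152.4 and 51.6 with LIF (log2 change 1.28; limma, adjusted p = 0.46). Mt4, of the same family, averaged 39.2 ± 2.62 without LIF (SD, n = 2), against signals of 128.9 and 73.7 with LIF. Both arrays without LIF were lower for Mt4 (log2 change -1.32, adjusted p = 0.42). The iron exporter Slc40a1 read 140.0 and 569.9 without LIF, against 59.7 and 91.1 with LIF (log2 change 1.94, adjusted p = 0.34), with the same order of arrays. The zinc sensor Mtf1 had a log2 change of -0.07.

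Copper and magnesium carriers differed little. Slc31a1, the main copper importer, read 916.6 and 812.6 without LIF, against 647.9 and 880.1 with LIF, and the groups overlapped (log2 change 0.19, SE 0.23). Slc31a2, a related protein of internal membranes, read 226.1 and 257.6 without LIF, against 169.5 and 173.3 with LIF, apart by a log2 change of 0.49 (adjusted p = 0.59). A dimmer probe set of Slc31a2 had a log2 change of -0.03. The magnesium carriers Slc41a1, Slc41a2 and Slc41a3 all overlapped, with log2 changes of -0.27, 0.40 and 0.16.

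Of the 8 tested genes named Slc4, 8 had a positive change, as had 59.4% of all tested genes, and their median was 0.57. This count and median include Slc4a9, which passed the filter only through the cells without LIF. Of the 8, 5 were apart and higher without LIF, against 27.3% of all genes, and 0 passed the test, against 0.145%. Slc4a2, the widely expressed chloride-bicarbonate exchanger AE2, read 312.0 and 357.8 without LIF, against 231.4 and 174.0 with LIF. Both arrays without LIF were higher (log2 change 0.74, SE 0.29, adjusted p = 0.42; 0.43 and 1.04 within the numbers). Its relative Slc4a3, or AE3, of excitable tissues, read 201.8 and 144.3 without LIF, against 92.8 and 112.3 with LIF (log2 change 0.74, SE 0.37, adjusted p = 0.53).

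The sodium-coupled bicarbonate carriers leaned the same way on their brightest probe sets. Slc4a4 read 178.2 and 106.9 without LIF, against 80.1 and 90.3 with LIF (log2 change 0.70), and its next probe set had a log2 change of 0.97. Slc4a5 and Slc4a8 had log2 changes of 0.44 and 0.21, of which only that of Slc4a5 came from groups that did not overlap. Another probe set of Slc4a8 above the filter had a log2 change of -0.46. Slc4a11 had 0.20 (SE 0.22) and the adaptor gene Slc4a1ap 0.23 (SE 0.24). Slc4a9 had 1.21 with an SE of 1.18, because array 2 with LIF read 4.9 and array 1 with LIF 48.4. With a common median 5 of the 8 were positive, and the log2 changes of Slc4a11, Slc4a8 and Slc4a1ap were -0.09, -0.08 and -0.07.

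Of 7 tested genes named Slc9, 4 were apart and higher (27.3% of all genes) and 0 apart and lower (15.2% of all genes), with a median change of 0.38. The 4 include the scaffold gene Slc9a3r1. They also include Slc9a7, which passed the filter only through the cells without LIF and also enters the median. Slc9a7, an exchanger of the trans-Golgi network, read 48.2 and 41.1 without LIF, against 17.7 and 13.0 with LIF. The arrays of a group lay close together and the groups did not overlap (log2 change 1.55, SE 0.73, adjusted p = 0.51; 1.45 and 1.66 within the numbers). Both arrays with LIF were below the filter signal, so the size of this change is uncertain. Slc9a3, the exchanger of gut and kidney epithelium, read 61.8 and 57.3 without LIF, against 38.2 and 38.0 with LIF (log2 change 0.64, adjusted p = 0.72), while its other probe set had -1.06. Slc9a5, Slc9a8 and Slc9a9 had log2 changes of 0.63, 0.38 and 0.12. Other probe sets above the filter had -0.05 for Slc9a5 and -1.55, 0.13 and 0.53 for Slc9a8.

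The scaffold gene Slc9a3r1 read 3040 and 4052 without LIF, against 2918 and 2865 with LIF (log2 change 0.28, SE 0.20, adjusted p = 0.67). Its 3 probe sets all had positive changes, of 0.22 to 0.55. For Slc9a3r2, with 6 probe sets, the brightest had a log2 change of -0.01 and the others ranged from -0.37 to 0.57.

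**Figure D3:**
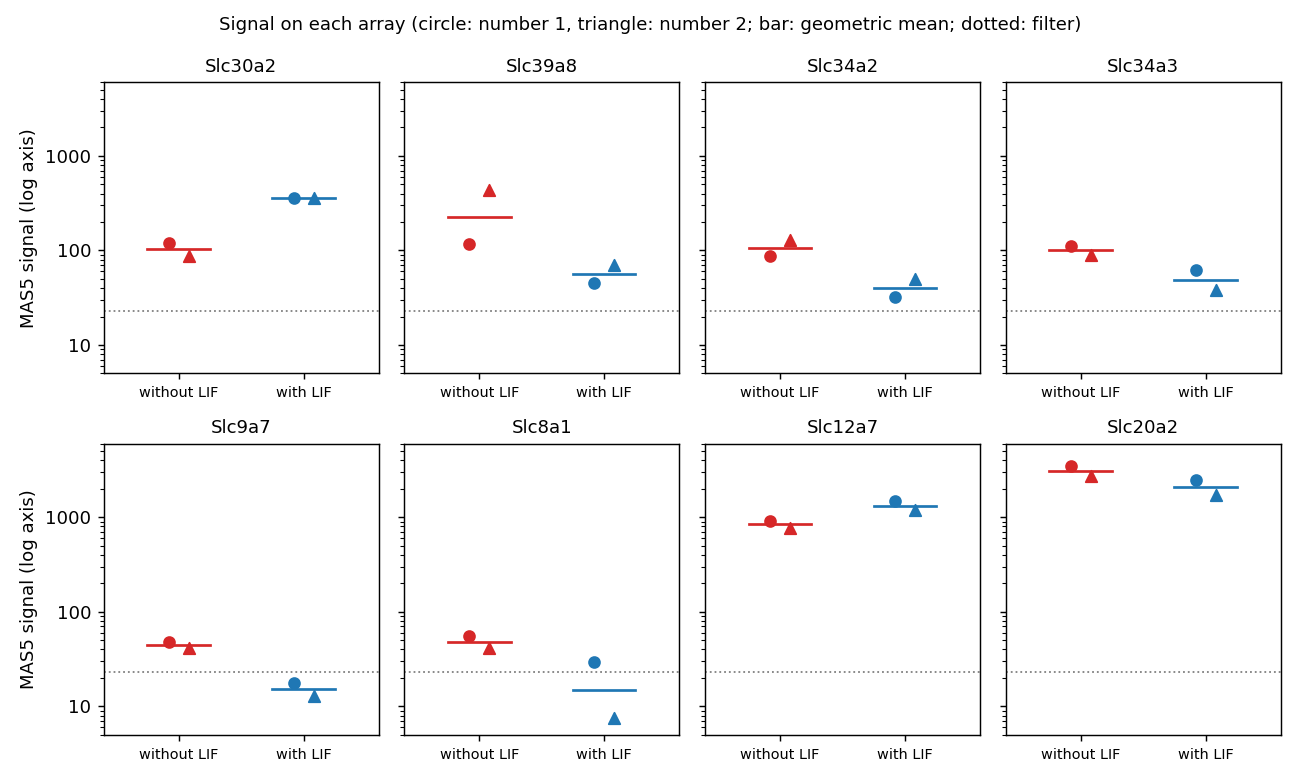
MAS5 signal (log axis) on each array for 8 members, cells without LIF at left in red and with LIF at right in blue. Circles are arrays numbered 1, triangles those numbered 2, bars geometric means and dotted lines the filter at 22.9; Slc30a2 and Slc12a7 are lower without LIF, and the other 6 higher.

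The cation-chloride carriers included the other member that was apart and lower without LIF. Slc12a7, the potassium-chloride cotransporter KCC4, which lets salt out of swollen cells, read 909.4 and 775.2 without LIF, against 1479.9 and 1186.0 with LIF. The change was alike within the numbers, at -0.70 and -0.61 (log2 change -0.66, 1.58-fold lower; SE 0.21; adjusted p = 0.33). Its dimmer probe set read 246.9 and 221.1 without LIF, against 463.5 and 339.6 with LIF (log2 change -0.76), with the groups again apart. Slc12a7 was thus lower on both of its probe sets.

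Slc12a2, the sodium-potassium-chloride cotransporter NKCC1, which brings salt in, read 2399.8 and 4260.6 without LIF, against 2036.5 and 2425.1 with LIF. The groups overlapped by a small margin (log2 change 0.52, SE 0.28, adjusted p = 0.56), and its other probe sets had 0.19 and 0.23. Slc12a8, a distant member of the family, read 239.7 and 202.2 without LIF, against 144.2 and 103.6 with LIF (log2 change 0.85, SE 0.34, adjusted p = 0.43). Both arrays without LIF were higher, by 0.73 and 0.96 within the numbers.

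Slc12a4, Slc12a5 and Slc12a9 overlapped, with log2 changes of 0.12, 0.27 and 0.26. Slc12a3, the thiazide-sensitive carrier of kidney, had low signals and passed the filter only through the cells with LIF. Its brightest probe set had log2 changes of opposite sign within the numbers, -2.01 and 0.58 (log2 change -0.71, SE 0.90), with signals of at most 31.7 without LIF and 44.3 with LIF. Its other probe set read 11.9 and 5.9 without LIF, against 69.8 and 58.8 with LIF, lower on both arrays without LIF (log2 change -2.93). Both arrays without LIF were below the filter signal there, so the size of this change is uncertain. The probe sets of Slc12a3 thus differed in whether the groups overlapped.

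Among regulators of the Slc9 and Slc12 carriers, 0 of 9 tested genes passed the test, against 0.145% of all genes, with a median change of 0.04. Stk39, the kinase SPAK, which activates Slc12a2 and inhibits the potassium-chloride cotransporters, read 223.8 and 121.7 without LIF, against 76.7 and 41.4 with LIF (log2 change 1.55, adjusted p = 0.33). Its changes within the numbers were nearly equal, at 1.54 and 1.56. Sgk1, a kinase that acts on sodium carriers, read 3546 and 5429 without LIF, against 8232 and 10707 with LIF (log2 change -1.10, SE 0.25, adjusted p = 0.16). For Wnk2, a kinase upstream of Stk39, the log2 change was 0.92 (adjusted p = 0.44), and for Wnk1 and Oxsr1 it was 0.04 and 0.09.

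Among the phosphate carriers 0 of 5 tested genes passed the test, against 0.145% of all genes. All 3 Slc34 genes were apart and higher without LIF, against 27.3% of all genes, and all had low signals. Their median change was 1.05, beside 0.35 over all tested genes below a signal of 214. Slc34a2, the phosphate carrier of lung and gut, read 87.2 and 128.3 without LIF, against 32.4 and 49.3 with LIF. The change was alike within the numbers, at 1.43 and 1.38 (log2 change 1.40, 2.65-fold; SE 0.51; adjusted p = 0.38). Slc34a3, of kidney, read 111.6 and 90.0 without LIF, against 61.6 and 37.8 with LIF (log2 change 1.05, SE 0.49, adjusted p = 0.50). Slc34a1, also of kidney, read 77.0 and 49.0 without LIF, against 23.0 and 44.8 with LIF (log2 change 0.94, adjusted p = 0.65), with the values of the arrays numbered 2 close together.

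The Slc20 carriers, which serve most cells and are also receptors for retroviruses, had bright probe sets. Slc20a2 read 3456.4 and 2751.9 without LIF, against 2502.3 and 1721.9 with LIF. Both arrays without LIF were higher (log2 change 0.57, 1.49-fold; SE 0.24; adjusted p = 0.45; 0.47 and 0.68 within the numbers). A dimmer probe set of Slc20a2 had a log2 change of 0.24, with the groups overlapping. Slc20a1 read 3634.0 and 5383.1 without LIF, against 3943.2 and 4151.8 with LIF, and the arrays without LIF lay on either side (log2 change 0.13, SE 0.22; -0.16 with a common median).

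Of the calcium exchangers only Slc8a1 and 3 Slc24 genes were tested. Slc8a1, the sodium-calcium exchanger of heart muscle, read 55.9 and 41.9 without LIF, against 29.7 and 7.6 with LIF, with array 2 with LIF below the filter (log2 change 1.69, SE 0.89, adjusted p = 0.55). Left without that array, its log2 change was the lowest of its leave-one-out values, 0.70. Its other 3 probe sets lay below the filter, with log2 changes of 2.92, -0.18 and -0.48. Slc24a1, Slc24a3 and Slc24a4 all overlapped, with log2 changes of -0.11, 0.51 and -0.08.

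Pumps that work beside these carriers also gave no call. Of 12 tested sodium-potassium and calcium pump genes 0 passed, against 0.145% of all genes, with a median change of 0.24. At so low a share a short list is likely to hold no call. Atp1b2, a subunit of the sodium pump, read 213.3 and 374.5 without LIF, against 491.5 and 718.0 with LIF (log2 change -1.07, adjusted p = 0.33). Of 12 magnesium, phosphate and mitochondrial calcium genes 0 passed, against the same share of all genes, with a median of 0.30. Micu2, which gates the mitochondrial calcium channel, read 602.3 and 545.2 without LIF, against 299.4 and 286.6 with LIF (log2 change 0.97, SE 0.23, adjusted p = 0.19). Its arrays agreed within each group, at 1.01 and 0.93 within the numbers.

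Below the filter were 11 members: Slc4a1, Slc4a10, Slc8a2, Slc8a3, Slc9a2, Slc9a4, Slc12a1, Slc24a2, Slc30a8, Slc39a5 and Slc39a12. Their signals ran from 0.8 to 46.9, and several are carriers of other tissues, such as Slc4a1 of red blood cells, Slc12a1 of kidney and Slc30a8 of pancreatic islets. Slc4a1 read 19.3 and 6.3 without LIF, against 34.8 and 46.9 with LIF (log2 change -1.87), while of its other probe sets, both dim, 1 had a change of -1.48 and 1 a positive change. These levels are too dim for a fold change to be read.

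Probe sets of a gene did not always share a direction. Of 24 tested members with several probe sets above the filter, 14 had all of them in the same direction, among them Slc39a8, Slc12a7, Slc12a2, Slc20a2, Slc4a4 and Slc39a10. In the other 10 some read the other way. They were Slc30a1, Slc31a1, Slc31a2, Slc39a14, Slc41a3, Slc4a8, Slc9a3, Slc9a3r2, Slc9a5 and Slc9a8.

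**Figure D4:**
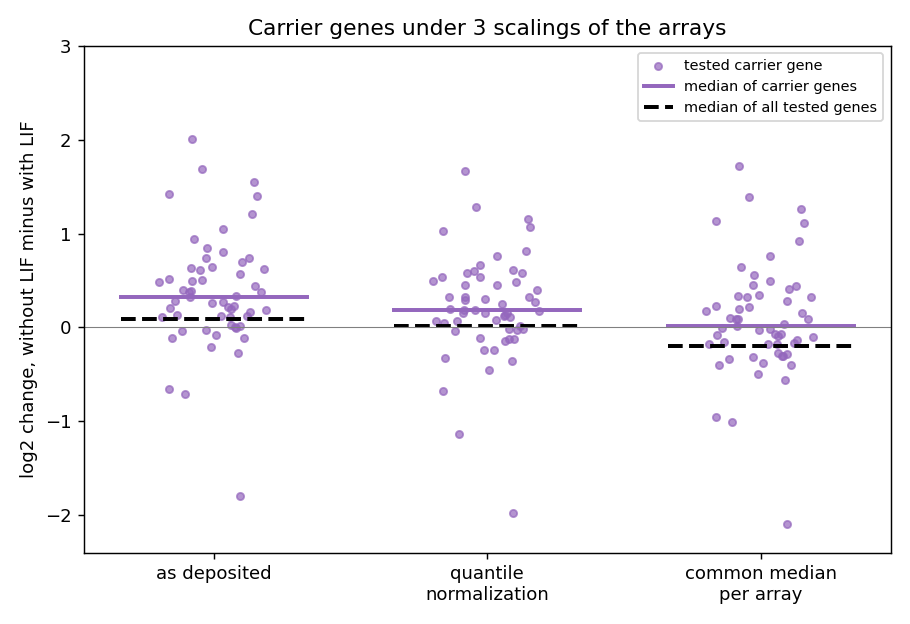
Log2 change (without LIF minus with LIF) of each tested member with arrays as deposited, after quantile normalization and with a common median per array. Solid lines are the members' medians (0.32, 0.19 and 0.02) and dashed lines those of all tested genes (0.09, 0.02 and -0.20), so both move together while Slc30a2 stays lowest.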

How the data were processed

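Transcripts were measured in 4 samples on Affymetrix arrays. The authors deposited linear MAS5 signal intensities, according to the submitters' processing notes. Its version is not named there. Each array is summarised by itself in MAS5, so dim values can shift between arrays. Probe sets were named from the platform annotation, and the Entrez identifiers of all 68 members matched RefSeq (GRCm38.p6), which changed 0 symbols. Controls and probe sets lacking a single symbol were left out, including 1 shared by a member and another gene. The probe set of highest mean log2 signal stood for each gene. The 1 value at 0 was raised to the smallest positive signal (0.1). Genes were tested above the 30th percentile of mean log2 signal (4.51, a signal of 22.9), which 14445 of 18193 passed.

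The groups were compared in R 4.3.3 using limma 3.58.1 (lmFit, then eBayes with trend, 2 residual degrees of freedom, two-sided, Benjamini-Hochberg over all tested genes at 0.05), after a check of the fit on simulated data. Named members are those past the test, 2-fold and apart, with the 10 smallest p in each direction, or brightest of their family; others are given briefly. Members and lists were chosen with earlier results of these data known. Alternatives were no filter or one at the 50th percentile, a pseudocount of 14.3, quantile normalization, a common median, no trend, the mean of probe sets, plain probe sets, a replicate block and leaving out each array. Figures used matplotlib 3.10.9 in Python 3.11.15.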

Additional observations from a re-analysis of the deposited data

How the results depend on the processing

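The count of members past the test was 0 as reported and also without a filter, with the filter at the 50th percentile, with a pseudocount, quantile normalization, no trend (0 of all genes called), the mean of probe sets or plain probe sets. It was 1 with a common median (Slc30a2; 0.907% of all genes called) and 0 to 2 when each array was left out. The 2 (Slc30a2 and Slc39a8) and 1 (Slc30a2) came without array 1 or array 2 of the cells without LIF, where 2.10% and 3.43% of all genes were called. With the replicate number as a block it was 4, Slc39a8 and Slc20a2 higher and Slc30a2 and Slc12a7 lower, of 975 genes in all (6.75%); the labels give the arrays only a shared number, and same-numbered arrays had deviations that correlated at 0.291 across genes. The count 2-fold and apart was 10 without a filter and 3 at the 50th percentile, where dim members enter or leave, 6 to 10 with each array left out, and 4 with both group means above the filter, a setting chosen after seeing the data. Only for the last of these settings is a share of all genes given, 7.29%. The median change was 0.27 without a filter, 0.24 at the 50th percentile, 0.19 with quantile normalization, 0.02 with a common median, 0.23 with the mean of probe sets, 0.36 with plain probe sets, 0.27 to 0.39 with each array left out, and 0.36 for the carriers proper, chosen after seeing the data. Of 26 named members 16 kept their direction in every alternative in which they were tested. Among the 16, Slc8a1 was tested in 10 alternatives, Slc34a2 and Slc9a7 in 12 and the others in 13. With plain probe sets Slc8a1 lay below the filter, and its brightest plain probe set had a log2 change of -0.48. With a common median the change was -0.16 for Slc20a1, -0.10 for Slc31a1, -0.07 for Slc4a1ap and -0.01 for Slc9a3r1, and with the mean of probe sets it was 0.03 for Slc30a1 and -0.02 for Slc39a14. With each array left out the change ran from -1.48 to 0.05 for Slc12a3, -0.15 to 0.41 for Slc20a1, -0.29 to 0.07 for Slc24a1, -0.68 to 0.52 for Slc24a4, -0.67 to 0.62 for Slc30a1, -0.03 to 0.41 for Slc31a1 and -0.09 to 0.01 for Slc39a6. The causes were not tested. Dim members are limited by signal over background.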
